A study of Mus musculus with 7 samples.

Results

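Mature pancreatic acinar cells make and secrete the digestive enzymes of the gut, and their transcripts should be scarce in purified islet β-cells. The counts of 9 acinar secretory genes were followed through every library of sorted β-cells: the protease precursors Ctrb1, Prss2 and Cela2a, the carboxypeptidases Cpa1 and Cpb1, the lipases Pnlip and Cel, the lipase cofactor Clps and the secreted lectin-like protein Reg1. They were taken by gene symbol. All 9 had a row among the 24035 genes of the table, and all 9 passed the filter on low counts. The libraries were made from poly(A) RNA of islet β-cells of C57BL/6N mice on a high fat diet (HFD, n = 3 mice, replicates 2 to 4) or on chow diet (CD, n = 4 mice, replicates 1 to 4). The diet was given for 2 days from 12 weeks of age. No transgene or other treatment is named for either group. For the 2-day feeding as a whole the study names male C57BL/6NCrl mice, and the labels of these libraries give no sex. The β-cells were gated by FACS on ZIGIR, a dye for the zinc of secretory granules, and Ex4-Cy5, a labelled ligand of the GLP-1 receptor.

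In acinar cells the proteases are made as inactive zymogens, stored with the lipases and other hydrolases in zymogen granules, and released into the duct on a meal. The transcription factor complex PTF1, made of Ptf1a, an E-protein partner and Rbpjl or its relative Rbpj, drives this whole set of genes together, and Bhlha15 (MIST1) and Nr5a2 act beside it. Acinar cells are also the most abundant cells of the pancreas from which islets are isolated.

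The promoters of 8 of the 9 genes are in the RefSeq promoter table for GRCm38.p6. Each sequence below is the 250 bases before the RefSeq start of the gene, 5′ to 3′ on the strand of the gene. The 4 shown are those of a major protease (Cela2a), the trypsinogen Prss2, the lipase Cel, which had a low share in CD replicate 1, and Reg1, whose profile departed most from the rest. Capitals mark TATAAA, the core of a TATA box, and TTTCCC or its reverse complement GGGAAA, the part of a PTF1 site that Rbpjl or Rbpj contacts.
Cela2a: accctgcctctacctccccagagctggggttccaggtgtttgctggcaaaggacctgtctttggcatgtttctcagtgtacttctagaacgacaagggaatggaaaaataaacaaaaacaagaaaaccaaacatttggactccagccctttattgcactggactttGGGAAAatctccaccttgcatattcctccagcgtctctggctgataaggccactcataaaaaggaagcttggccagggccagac
Prss2: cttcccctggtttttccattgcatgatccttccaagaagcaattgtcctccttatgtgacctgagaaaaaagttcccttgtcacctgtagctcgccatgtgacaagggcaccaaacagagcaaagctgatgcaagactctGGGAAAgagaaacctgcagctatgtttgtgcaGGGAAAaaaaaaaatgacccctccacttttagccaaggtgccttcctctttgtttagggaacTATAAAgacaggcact
Cel: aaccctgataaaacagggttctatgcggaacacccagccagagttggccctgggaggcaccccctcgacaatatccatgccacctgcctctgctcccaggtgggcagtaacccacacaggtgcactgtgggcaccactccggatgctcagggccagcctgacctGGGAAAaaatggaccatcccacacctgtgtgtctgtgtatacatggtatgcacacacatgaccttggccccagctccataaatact
Reg1: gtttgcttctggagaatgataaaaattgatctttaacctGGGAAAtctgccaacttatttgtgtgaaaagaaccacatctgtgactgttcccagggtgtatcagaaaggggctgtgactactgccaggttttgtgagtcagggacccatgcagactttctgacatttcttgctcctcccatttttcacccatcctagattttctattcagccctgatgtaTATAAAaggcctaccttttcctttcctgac
They lie at chr4:141826006-141826255 on the minus strand (Cela2a), chr6:41521526-41521775 on the plus strand (Prss2), chr2:28563404-28563653 on the minus strand (Cel) and chr6:78425733-78425982 on the plus strand (Reg1).

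TTTCCC was found on either strand in 6 of the 8 promoters, and in 21.9% of 32851 promoters of the same length. TATAAA on either strand was in 3 of the 8, those of Prss2, Pnlip and Reg1, and in 12.4% of all promoters. The E-box CANNTG, which holds another part of a PTF1 site, was in 7 of the 8 and in 66.2% of all promoters, and its form CACCTG, which is counted within it, in 4 of the 8 and in 17.2%. Such matches are short letter runs and are given as a description.

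The acinar genes were present in 6 of the 7 libraries and nearly absent in one. Summed over the 9 genes, HFD replicates 2, 3 and 4 held 29840, 9 and 13426 counts, and CD replicates 1, 2, 3 and 4 held 737, 30927, 8392 and 7912 counts. As counts per 1000000 counts of the library (CPM), the sum was 2127, 0.852 and 933 in the HFD libraries and 61.2, 2775, 372 and 567 in the CD libraries. The exact 95% binomial interval of the sum in HFD replicate 3 was 0.390 to 1.62 CPM, and that in CD replicate 1 was 56.9 to 65.8 CPM. These intervals cover counting error only. The highest library, CD replicate 2, was 3256-fold above the lowest, HFD replicate 3, and 45.3-fold above the lowest library of its own diet, CD replicate 1. In bulk RNA, fewer acinar cells and less acinar RNA per cell cannot be told apart.

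The diets did not separate. The summed level averaged 1020 ± 1066 CPM in the HFD libraries and 944 ± 1238 CPM in the CD libraries (SD, n = 3 and 4), a ratio of 1.08 with an SD in each group above its mean. From medians the ratio was 1.99 and from geometric means 0.279, which turns its direction. The ratio of means was 1.62 without HFD replicate 3, 0.495 without HFD replicate 2 and 3.06 without CD replicate 2. The highest libraries of the diets were close to each other, with HFD replicate 2 at 0.767 times CD replicate 2.

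**Figure D1:**
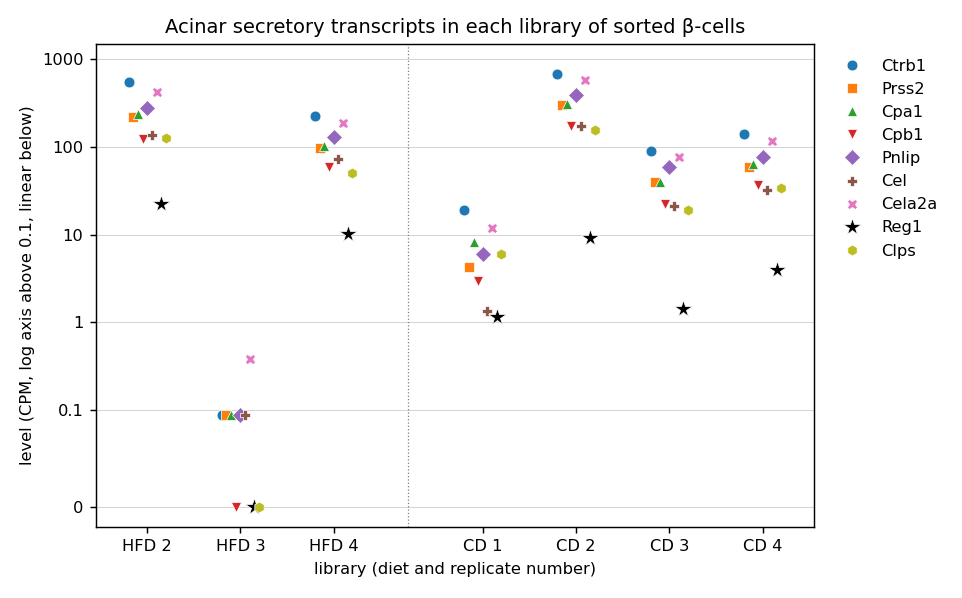
Level of each of the 9 acinar genes (CPM, log axis above 0.1 and linear below) in the 3 HFD and 4 CD libraries, 1 point per gene and library. The genes move up and down as a block, from 0 to 0.379 CPM in HFD replicate 3 to 9.15 to 674 CPM in CD replicate 2, and Reg1 (stars) is the only one higher in HFD replicate 2 than in CD replicate 2.

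Total counts ranged over the HFD libraries from 10559175 to 14391602 and over the CD libraries from 11145642 to 22557957, and Ins1 and Ins2, the insulin genes, took 27.7 to 30.9% of the counts of a library. HFD replicate 3 stood apart in a second way: 9627 genes had a count there, against 12484 to 14600 in the other libraries. Of 5204 genes with 14 to 232 counts in CD replicate 1, the range of the 9 acinar genes in that library, 43.7% were at 0 in HFD replicate 3, against 0.135 to 7.63% in the remaining libraries. At a higher range the loss was rarer: of 8118 genes with 146 to 3269 counts in HFD replicate 4, 6.34% had at most 4 counts in HFD replicate 3, as did all 9 acinar genes, against at most 0.0123% in the remaining libraries. Both ranges were chosen after the levels were seen. The part of these missing genes in the near absence of acinar counts was not tested, and results are given with and without HFD replicate 3.

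Ctrb1, a chymotrypsinogen (chr8:111686519-111691010 in GRCm38, minus strand, as annotated by GENCODE), was at 551, 0.0947 and 227 CPM in HFD replicates 2, 3 and 4, and at 19.3, 674, 90.7 and 142 CPM in CD replicates 1, 2, 3 and 4. The groups overlapped, with the single count of HFD replicate 3 at the bottom and CD replicate 2 at the top. Its mean was 259 ± 277 CPM in HFD and 232 ± 299 CPM in CD libraries (SD, n = 3 and 4). The log2 fold change of HFD over CD was 0.21 ± 1.41 (SE, edgeR quasi-likelihood test, adjusted p = 0.985).

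Prss2, an anionic trypsinogen (chr6:41521787-41525079, plus strand), was at 221, 0.0947 and 97.1 CPM in HFD libraries and 4.24, 299, 39.9 and 59.1 CPM in CD libraries, in the same order of replicates. Cela2a, a pancreatic elastase precursor (chr4:141814962-141826160, minus strand), was at 424, 0.379 and 186 CPM in HFD libraries and 11.9, 577, 77.9 and 119 CPM in CD libraries. Both proteases ranked the 7 libraries as Ctrb1 did, and Cela2a gave 4 of the 9 acinar counts of HFD replicate 3. Their log2 fold changes were 0.12 ± 1.40 for Prss2 and 0.10 ± 1.39 for Cela2a (SE, edgeR, adjusted p = 0.991 and 0.993). In the GENCODE transcripts Prss2 shares 7.83% of its 50-base stretches with 6 other genes, the most, 6.92%, with Try10, and Cela2a shares 25.6% with Ctrc, so some of their reads may have been assigned to these relatives or the reverse. The remaining members shared none, apart from 3.74% in Reg1.

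Cpa1, which trims aromatic and aliphatic residues from the end of a peptide (chr6:30639218-30645363, plus strand), was at 236, 0.0947 and 101.7 CPM in HFD libraries and at 8.31, 311, 40.3 and 64.3 CPM in CD libraries. Cpb1, which trims basic residues (chr3:20248264-20275733, minus strand), was at 125, 0 and 59.1 CPM in HFD libraries and at 2.99, 174, 22.3 and 36.4 CPM in CD libraries. Neither separated the diets. The log2 fold change was 0.13 ± 1.36 for Cpa1 and 0.10 ± 1.37 for Cpb1 (SE, edgeR, adjusted p = 0.989 and 0.992). The count of 0 for Cpb1 in HFD replicate 3 allows a level of up to 0.284 CPM, the value of 3 counts in that library, and the same limit holds for Clps and Reg1 there.

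Pnlip, the main triglyceride lipase of pancreatic juice (chr19:58652498-58681788, plus strand), was at 281, 0.0947 and 129 CPM in HFD libraries and at 6.06, 397, 59.3 and 76.4 CPM in CD libraries. Clps, colipase, which anchors that lipase to the bile-coated fat droplet (chr17:28558149-28560766, minus strand), was at 128, 0 and 50.2 CPM in HFD libraries and at 5.98, 158, 19.2 and 34.2 CPM in CD libraries. The lipase and its cofactor thus ranked the libraries alike. Cel, a bile salt-dependent lipase that also splits cholesteryl esters (chr2:28555795-28563403, minus strand), was at 138, 0.0947 and 72.8 CPM in HFD libraries and at 1.33, 176, 21.1 and 32.3 CPM in CD libraries. Its level in CD replicate 1 rested on 16 counts. Log2 fold changes were 0.07 ± 1.41 for Pnlip, 0.18 ± 1.32 for Clps and 0.33 ± 1.42 for Cel (SE, edgeR, adjusted p = 0.995, 0.986 and 0.972).

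Reg1 encodes a small secreted protein of the regenerating family that acinar cells release with their enzymes and that is known to increase in a stressed pancreas (chr6:78422711-78428667, plus strand). It was at 22.5, 0 and 10.1 CPM in HFD replicates 2, 3 and 4, and at 1.16, 9.15, 1.42 and 3.94 CPM in CD replicates 1, 2, 3 and 4. Its highest library was HFD replicate 2, unlike those of the other members, which were all highest in CD replicate 2. The mean was 10.9 ± 11.3 CPM in HFD libraries and 3.92 ± 3.71 CPM in CD libraries (SD, n = 3 and 4), and the log2 fold change was 1.52 ± 1.34 (SE, edgeR, adjusted p = 0.917).

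None of the 9 genes passed an adjusted p of 0.05 in the edgeR quasi-likelihood test, and 0% of all 12354 genes tested did. None had an unadjusted p under 0.05 either, where 5.77% of all genes did. In 9 of 9 the CPM values of the diets overlapped, whereas 9.31% of all genes tested had no overlap. The log2 fold changes were above 0 in 9 of 9, with a median of 0.13 and standard errors of 1.32 to 1.42, beside a median of −0.08 over all genes, of which 5199 were above 0 and 7155 below. Since the 9 genes moved together over the libraries, these signs are in effect a single observation. The direction also turned with the tool: with limma-voom 8 of the 9 were below 0, Ctrb1 at −1.60 and Pnlip at −1.27, and Reg1 was at 0.11. Likelihood ratio tests in edgeR, the DESeq2 Wald test and limma-voom also called 0 of the 9.

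Without HFD replicate 3, 8 of the log2 fold changes lay between 0.64 (Pnlip) and 0.91 (Cel), and that of Reg1 was 2.11 ± 0.67 (SE, edgeR, unadjusted p = 0.00902, adjusted p = 0.598). Reg1 was the only member with an unadjusted p under 0.05 in that fit, where 6.81% of all genes had one and 0.0156% passed the adjusted threshold. It was also the only member for which HFD replicates 2 and 4 were both above every CD library, a rule set after the levels were seen, which 8.83% of all genes met. Of the 3 HFD libraries, then, 2 had more Reg1 than any CD library and the other had none. Without HFD replicate 2, the log2 fold change of Reg1 was 0.39 and those of the other 8 members were below 0, as they were without CD replicate 1.

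**Figure D2:**
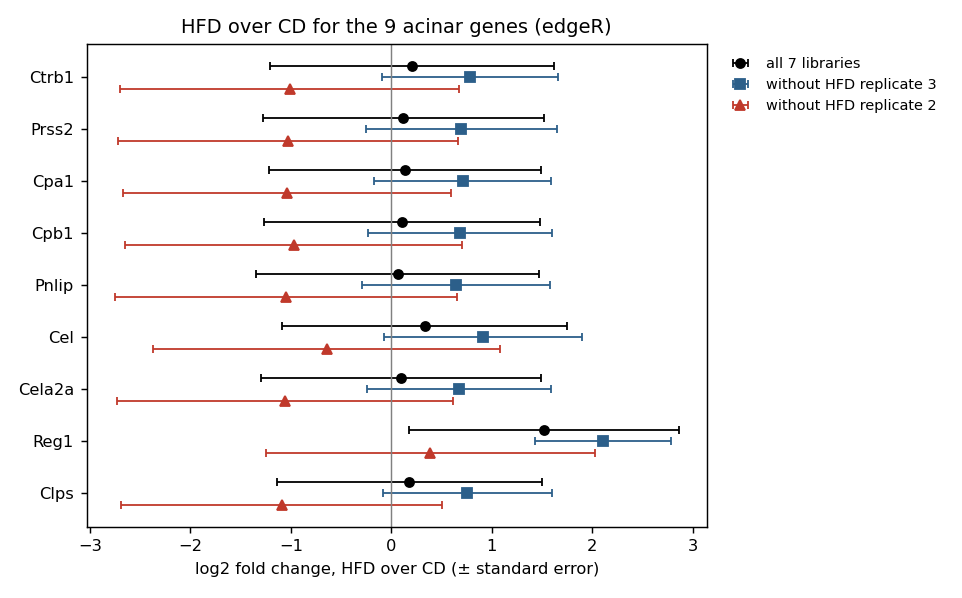
Log2 fold change of HFD over CD for each of the 9 acinar genes in edgeR, with bars for ± 1 standard error, over all 7 libraries (circles), without HFD replicate 3 (squares) and without HFD replicate 2 (triangles). With all libraries the values lie from 0.07 to 1.52, and for 8 of the genes the sign depends on which HFD library is left out.

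What stayed nearly constant was the make-up of the acinar counts. Over HFD replicates 2 and 4 and CD replicates 2 to 4, chosen as the 5 libraries with the highest sums, Ctrb1 gave 24.3 to 25.9% of the summed counts of the 9 genes, although its own level differed up to 7.44-fold among them. Cela2a gave 19.9 to 20.9%, Cpa1 10.8 to 11.3% and Prss2 10.4 to 10.8%. Pnlip gave 13.2 to 15.9% with its highest share in CD replicate 3, Cpb1 5.86 to 6.42% and Clps 5.16 to 6.03%. Cel varied more, from 5.66 to 7.80%, with its highest share in HFD replicate 4. The coefficient of variation over the 5 libraries was 1.84% for Prss2, 1.85% for Cpa1, 2.50% for Cela2a, 2.79% for Ctrb1, 13.5% for Cel and 50.6% for Reg1.

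Counts rise with transcript length, so genes were set against each other per kilobase of the longest annotated transcript. On that scale the mean share over the same 5 libraries was 30.6% for Ctrb1, 20.8% for Cela2a, 14.0% for Prss2, 10.3% for Pnlip, 10.04% for Clps, 7.58% for Cpa1, 3.36% for Cel, 2.46% for Cpb1 and 0.851% for Reg1. The ranges of neighbours in this order overlapped only for Pnlip, at 9.55 to 11.7%, and Clps, at 9.19 to 10.6%. Serine protease precursors thus led the order, and the lipase and its cofactor were level per length.

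CD replicate 1 held the same genes in other proportions. Of its 737 acinar counts, Ctrb1 gave 31.5% (exact 95% binomial interval 28.1 to 35.0%) and Clps gave 9.77% (7.72 to 12.1%), both above the ranges of the 5 libraries. Cel gave 2.17% (1.25 to 3.50%), Pnlip 9.91% (7.84 to 12.3%) and Prss2 6.92% (5.20 to 8.998%), all below those ranges. These intervals cover counting error in CD replicate 1 only. The 9 counts of HFD replicate 3 were too few to give a make-up.

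**Figure D3:**
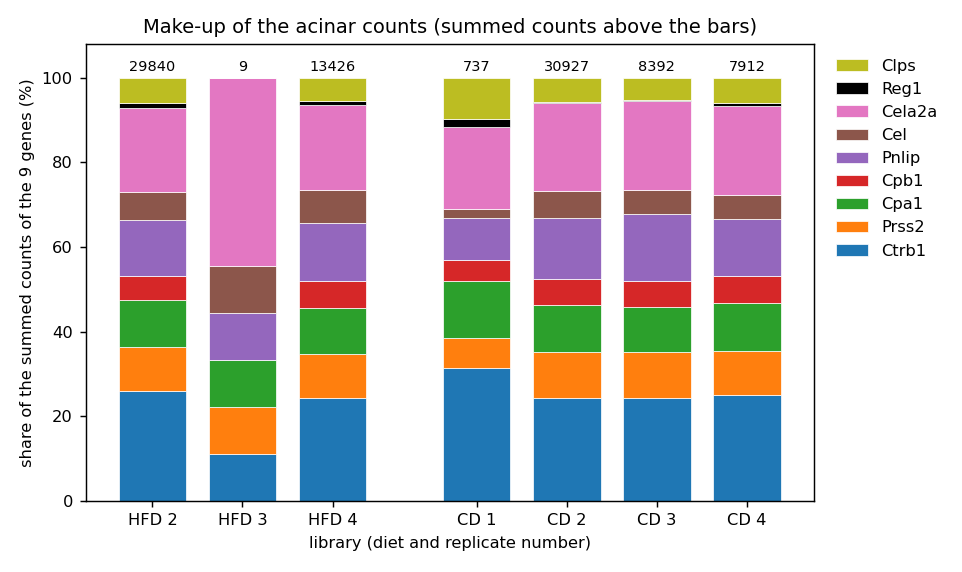
Share of each acinar gene in the summed counts of the 9 genes (%), 1 stacked bar per library, HFD then CD, with the summed counts above each bar. The bars of HFD replicates 2 and 4 and CD replicates 2 to 4 are nearly alike, CD replicate 1 has a larger Ctrb1 and Clps and a smaller Cel segment, and HFD replicate 3 rests on 9 counts.

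Reg1 departed from this near-constant make-up. It gave 1.06% (exact 95% interval 0.946 to 1.18%) and 1.09% (0.919 to 1.28%) of the summed counts in HFD replicates 2 and 4, against 0.330% (0.269 to 0.400%), 0.381% (0.261 to 0.538%) and 0.695% (0.524 to 0.904%) in CD replicates 2, 3 and 4. Per 1000 counts of the other 8 genes there were 10.7, 0 and 10.99 Reg1 counts in HFD replicates 2, 3 and 4, and 19.4, 3.31, 3.83 and 7.0 in CD replicates 1 to 4. CD replicate 1 was thus the highest, on 14 Reg1 counts and with an interval of its share, 1.04 to 3.17%, that overlaps those of both HFD libraries. The diets overlapped on this scale as well, and the scale was chosen after the shares were seen.

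Other genes of acinar cells followed the same libraries. Of 50 further acinar genes listed, 46 had a row, 40 of them products and 6 regulators or receptors. Among the 29 products with at least 10 counts in some library, 28 had their highest CPM in HFD replicate 2 or CD replicate 2, and 27 were at 0 in HFD replicate 3, where the most counted product had 2 counts. The matching shares over all genes with at least 10 counts were not computed. Zeros in HFD replicate 3 were not particular to acinar products. Of the 5204 genes with 14 to 232 counts in CD replicate 1, 43.7% were at 0 there. Summed over the 9 genes and these 40 products, acinar transcripts took 0.339%, 0.000114% and 0.139% of the counts in HFD replicates 2, 3 and 4, and 0.01004%, 0.432%, 0.0570% and 0.0869% in CD replicates 1 to 4. In the edgeR test, 21 of the 46 genes were tested and 0 were called, nor did any have an unadjusted p under 0.05, with 15 above 0, 6 below and a median log2 fold change of 0.20.

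The elastase Cela1 had the most counts of these products and was at 302, 0.189 and 106 CPM in HFD libraries and 5.81, 395, 50.6 and 74.3 CPM in CD libraries. Ctrl, a chymotrypsin-like protease, was at 123, 0 and 52.7 CPM in HFD libraries and 3.82, 163, 22.9 and 34.4 CPM in CD libraries. Both repeat the order of libraries seen for Ctrb1. Klk1, a kallikrein that many glands secrete, was at 44.6, 0 and 11.95 CPM in HFD libraries and at 0.581, 24.3, 6.56 and 8.46 CPM in CD libraries, so that, as for Reg1, HFD replicate 2 was above CD replicate 2. Spink3, the trypsin inhibitor that guards the acinar cell against early activation, was at 7.06, 0 and 3.06 CPM in HFD libraries and at 0, 1.97, 0.842 and 1.15 CPM in CD libraries, on at most 99 counts. At these low levels HFD replicates 2 and 4 were again above every CD library. Log2 fold changes were 0.97 ± 1.39 for Klk1 and 1.80 ± 1.65 for Spink3 (SE, edgeR, adjusted p = 0.931 and 0.919).

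The amylases were an exception, though not the only one. Of the 40 products, 7 were at 0 in every library, among them the trypsinogen Prss1. Amy2a2, Amy2a3, Amy2a4 and Amy2a5, copies of the pancreatic amylase gene, were at 0 in every library, and Amy2b had at most 27 counts. In the GENCODE transcripts 100% of the 50-base stretches of Amy2a2, Amy2a3 and Amy2a4 also occur in another gene, as do 57.2% of those of Amy2a5 and 54.9% of those of Prss1. How reads that match several genes were counted is not given in the sources used here, and its part in these zeros was not tested. Amy1, the salivary-type amylase, was at 0, 0 and 0.417 CPM in HFD libraries and at 0.831, 1.44, 0.355 and 0.789 CPM in CD libraries, a log2 fold change of −2.50 ± 1.83 (SE, edgeR, adjusted p = 0.904). The diets overlapped for Amy1, since HFD replicate 4 lay above CD replicate 3.

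The genes that control the acinar programme were at or near 0, with 1 exception. Ptf1a had 1 count in all 7 libraries together, Cckar, the receptor through which cholecystokinin drives enzyme release in rodents, had 0, and Nr5a2 and Rbpjl had at most 5 and 20 counts in a library. Gata4, a factor of early pancreas and acinar development, had at most 16. Bhlha15 was that exception, at 86.0, 95.4 and 114 CPM in HFD libraries and 93.5, 101.8, 84.1 and 93.1 CPM in CD libraries. Its level in HFD replicate 3, where the enzymes were lowest, lay between those of the other HFD libraries, and its log2 fold change was 0.08 ± 0.14 (SE, edgeR, adjusted p = 0.941).

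To find which genes had a profile most like the 9, each gene's log2(CPM + 0.5) was centred over the 7 libraries and set against the mean centred profile of the 9 genes as a root mean square difference. Over 13756 genes, Ctrl was the most alike, at 0.117 log2 units, then Cela3b at 0.244, 2210010C04Rik at 0.247, Pnliprp1 at 0.271 and Cela1 at 0.275. Rnase1, Try4, Sycn and Zg16 followed, at 0.420 to 0.499. Of the 10 most alike genes, 9 are on the acinar list, and 2210010C04Rik, a gene with a RIKEN clone name, is not. The members themselves lay between 0.142 (Cpb1) and 1.31 (Reg1), and the median gene lay at 2.75. Without HFD replicate 3, again 9 of the 10 most alike genes were on the list. The list was drawn up with earlier results of these data known.

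**Figure D4:**
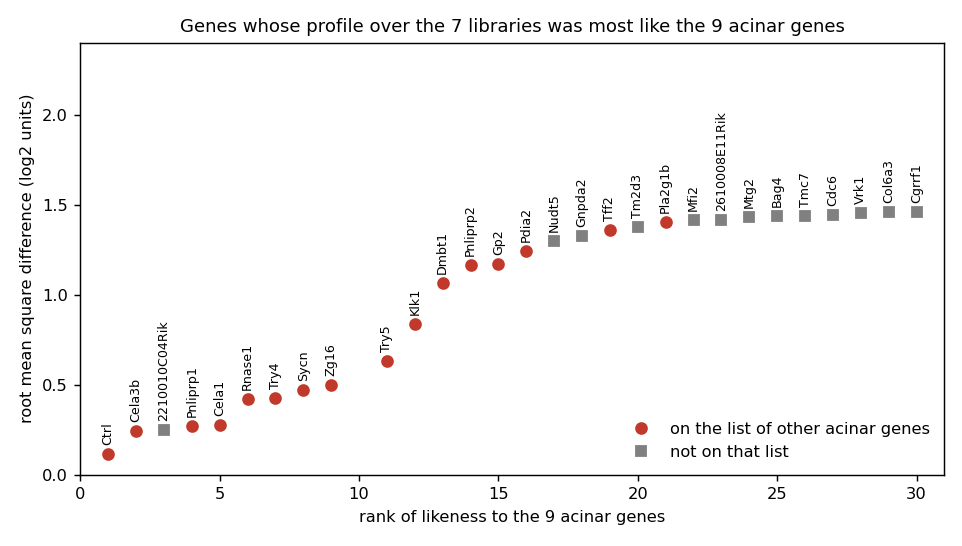
Root mean square difference (log2 units) between the profile of a gene over the 7 libraries and the mean profile of the 9 acinar genes, for genes among the 30 most alike that are not members, by rank. Those plotted up to rank 16 lie between 0.117 and 1.24, and all of them but 2210010C04Rik are on the list of other acinar genes (circles).

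Markers of other pancreatic cells did not share this range. Summed over 8 α-cell markers, the HFD libraries lay at 626 to 955 CPM and the CD libraries at 752 to 1002 CPM, and over 6 δ-cell markers at 532 to 776 CPM and 629 to 1326 CPM. Over the PP cell genes Ppy and Pyy the sums were 146 to 184 CPM in HFD and 129 to 373 CPM in CD libraries. Gcg, glucagon, was at 68.7, 69.6 and 147 CPM in HFD libraries and 71.2, 283, 294 and 73.0 CPM in CD libraries. HFD replicate 2, rich in acinar transcripts, was thus low in Gcg, while CD replicate 2 was near the highest, CD replicate 3. The δ-cell sum did have the same extremes as the acinar sum. It was highest in HFD replicate 2 (776 CPM) and CD replicate 2 (1326 CPM), and lowest in HFD replicate 3 (532 CPM) and CD replicate 1 (629 CPM). The α-cell sum was highest in HFD replicate 4 and CD replicate 3, and the PP cell sum in HFD replicate 3 and CD replicate 3. Over 8 ductal markers, where Krt7 and Epcam had the most counts, the sums were 361 to 452 CPM in HFD and 386 to 505 CPM in CD libraries.

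Non-epithelial cells were scarce. The sum over 8 endothelial markers, 3 of them at 0 throughout, was at most 1.28 CPM in HFD and 1.004 CPM in CD libraries, that over 9 stellate and fibroblast markers, 4 of them at 0 throughout, at most 0.973 CPM and 2.60 CPM, and all 5 red blood cell genes were at 0. Over 8 macrophage and leukocyte markers the sums were 30.3 to 53.0 CPM in HFD and 50.5 to 73.6 CPM in CD libraries. Most of this was C1qa alone, with a mean of 43.6 CPM over all libraries, and each of the others averaged 3.68 CPM (Cd68) or less. The 12 β-cell markers summed to 324398 to 335394 CPM in HFD and 303867 to 316462 CPM in CD libraries. The part of any of these cells in the acinar sums was not tested.

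**Figure D5:**
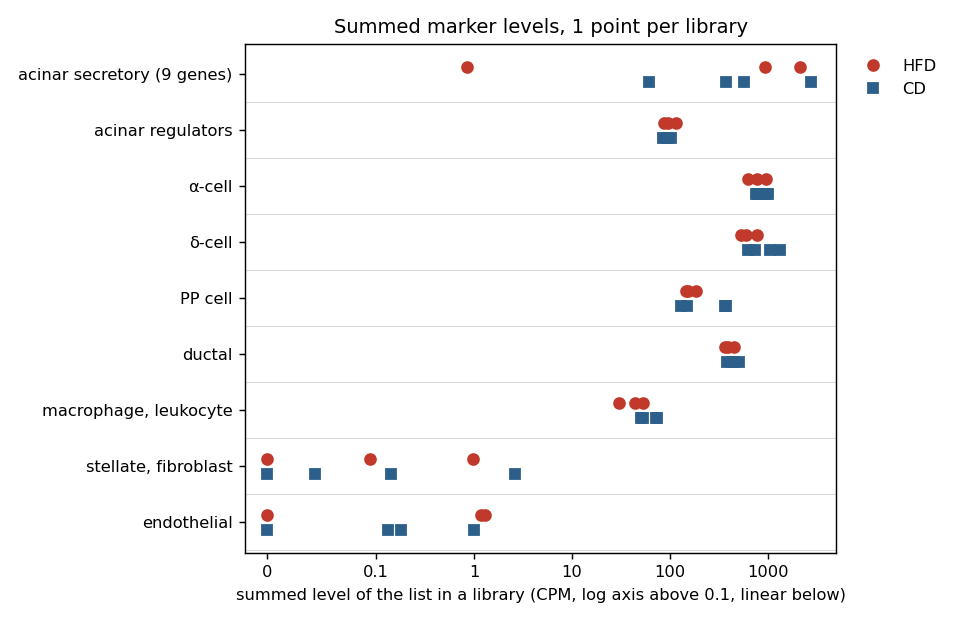
Summed level (CPM, log axis above 0.1 and linear below) of the 9 acinar genes and of 8 marker lists, 1 point per library, HFD (circles) above CD (squares). The acinar sums run from 0.852 to 2775 CPM, while the α-cell, δ-cell, PP cell, ductal and acinar regulator sums each span a far narrower range. The acinar regulator sums, 85.1 to 115 CPM, are nearly all Bhlha15, at 84.1 to 114 CPM, and the other regulators are at or near 0. The ductal sums are mostly Krt7 and Epcam.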

How the data were processed

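Poly(A) RNA of FACS-sorted β-cells was sequenced from stranded mRNA libraries, 1 per mouse by the study's account. The authors deposited raw read counts per gene symbol for 7 libraries, with no normalization, and the submitters' processing notes name mm10 and edgeR. For the aligner, the counter, the strand setting and the treatment of reads that match several genes, the sources used here give no details. Rows holding a date in place of a symbol (27 of 24062) were left out.

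CPM was computed from total counts. HFD was compared with CD in edgeR 4.0.16 (R 4.3.3) with filterByExpr, TMM factors, glmQLFit and glmQLFTest, without covariates, two-sided, with Benjamini-Hochberg adjustment over 12354 genes, and the code was tested on simulated data. Alternatives were other normalizations, filters and tests (edgeR likelihood ratio, DESeq2 1.42.0, limma-voom 3.58.1), a replicate block, and each library left out. Standard errors of the edgeR fits were derived from the test, as the absolute log2 fold change over the square root of the test statistic. Exact binomial intervals came from scipy 1.17.1 and cover counting error only. The 9 members, the other lists and the rules were chosen with earlier results of these data known. All members were named, with the 4 other acinar genes of highest mean CPM, the 4 of lowest p, the acinar regulators, up to 2 genes of highest mean CPM per marker list and the 10 genes most alike in profile, of which 1 is not reported here. The amylase copies and Prss1 were named after their values were seen. Coordinates and transcripts are from GENCODE (GRCm38) and promoters from RefSeq (GRCm38.p6). Stretches shared between genes were compared over 50 bases. A pseudocount of 0.5 CPM was used for profiles.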

Additional observations from a re-analysis of the deposited data

Results flagged for a closer look

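Of 37 values looked at over the 4 CD libraries, 10 had a single library far from the other 3, its gap to the nearest of them taking most of the whole range (Dixon's criterion at the 95% level). Chance flags about 1 in 20 such groups, and genes that move together are flagged together. CD replicate 2 was high for 4 acinar products: Cela3b at 168 CPM (others 4.65 to 30.8 CPM), Try4 at 149.8 CPM (6.40 to 30.8 CPM), Sycn at 106.2 CPM (2.24 to 15.5 CPM) and Zg16 at 87.12 CPM (2.49 to 15.5 CPM). CD replicate 1 was flagged in the make-up of its 737 acinar counts, with Ctrb1 at 31.48% (others 24.3 to 25.0%), Prss2 at 6.92% (10.4 to 10.8%), Cel at 2.171% (5.66 to 6.34%) and Cela2a at 19.4% (20.8 to 20.9%). The Cela2a share rested on 143 counts, with an exact 95% binomial interval of 16.6 to 22.4% that covers the others. CD replicate 3, the library with the most total counts (22557957), was flagged for the acinar regulators Gata4, at 0.7093 CPM on 16 counts (others 0 to 0.0717 CPM), and Ptf1a, at 0.04433 CPM on 1 count (0 in the others). With 0 in the others any count at all is flagged, so the Ptf1a flag shows nothing, and the rate of 1 in 20 does not hold for such counts.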

How the results depend on the processing

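None of the 9 acinar genes had an adjusted p under 0.05 under any alternative with a test, and the lowest adjusted p, 0.598, was that of Reg1 without HFD replicate 3. Of 144 values of the members under alternatives, 100 kept the sign of the fit to all libraries. The sign changed with limma-voom, with the block and without HFD replicate 2, CD replicate 1, CD replicate 3 or CD replicate 4, for 5 to 8 members each, and the cause was not tested. The counts of genes called over the whole table were 23 by the edgeR likelihood ratio test and 137 by DESeq2, against 0 by the quasi-likelihood test, and 0 to 2 with a library left out (2 without HFD replicate 3); no listed acinar gene was among them. With limma-voom the log2 fold change was −1.60 for Ctrb1, −1.01 for Prss2, −1.21 for Cpa1, −0.81 for Cpb1, −1.27 for Pnlip, −0.13 for Cel, −1.03 for Cela2a, −1.01 for Clps, −1.04 for Cela1, −0.44 for Cela3b, −0.97 for Ctrl and −0.61 for Klk1, and 0.11 for Reg1, against 1.52 in the quasi-likelihood fit. The labels give both diets replicate numbers 2 to 4. Same-numbered libraries had correlations of their deviations of 0.0253, 0.00424 and 0.0816. The highest correlations of these HFD libraries with a CD library of another number were 0.0202, 0.0215 and 0.0183. Whether same-numbered libraries share more than a number cannot be told from these values. Among the CD libraries, the HFD library correlated best with that of its own number for 2 of the 3 numbers. With the replicate number as a block, on 3 libraries per diet, the log2 fold change was −1.18 for Ctrb1, −1.13 for Prss2, −1.13 for Cpa1, −1.09 for Cpb1, −1.21 for Pnlip, −0.83 for Cel, −1.23 for Cela2a, −1.03 for Clps, −1.20 for Cela1, −0.78 for Cela3b, −1.10 for Ctrl and −0.70 for Klk1, and 0.012 for Reg1, and 0 genes were called. With each library left out in turn, the log2 fold change ranged from −1.01 to 1.65 for Ctrb1, −1.03 to 1.64 for Prss2, −1.04 to 1.60 for Cpa1, −0.97 to 1.59 for Cpb1, −1.05 to 1.55 for Pnlip, −0.64 to 1.96 for Cel, −1.06 to 1.57 for Cela2a, −1.09 to 1.61 for Clps, −1.28 to 1.66 for Cela1, −1.03 to 2.04 for Cela3b, −1.07 to 1.54 for Ctrl, −0.73 to 1.88 for Klk1 and −0.056 to 0.14 for Bhlha15, and from 0.39 to 2.35 for Reg1. The ratio of the summed acinar level, HFD over CD, was 1.99 from medians and 0.279 from geometric means. HFD replicate 3, at a total count close to that of CD replicate 2, held too few acinar counts for a make-up, for a reason that was not tested, and the standard errors of 1.32 to 1.42 log2 units limit what the 7 libraries can show for the other values.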
